A study of Mus musculus with 6 samples.

Results

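The genes described here encode collagen chains, laminin chains and the proteins that accompany them in basement membranes and in the fibres of the extracellular matrix. They were taken from the deposited gene tables by symbol: every collagen chain, every laminin chain and 21 further matrix genes (fibronectin, thrombospondins, nidogens, perlecan, agrin, lysyl oxidases, fibulins, fibrillins and others). The rule found 76 genes of 49585 listed. They were sorted into 13 matrix classes by textbook role, and the rule itself uses names only.

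RNA was sequenced from mGB2, a mouse glioblastoma line that the labels call a glioblastoma stem cell, in 3 libraries of genotype Bcat1-KO and 3 libraries of genotype Control. Bcat1 encodes the cytosolic aminotransferase of the branched-chain amino acids. Both groups were untreated and grew attached to a plate coated with extracellular matrix, in DMEM:F12 medium supplemented with N2, B27 and the growth factors EGF and FGF. The labels do not say how the knockout was made, whether it is a clone, or whether the replicates are separate cultures. The p-values below therefore measure only the spread between these libraries, which can be technical.

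Basement membranes are thin sheets in which a laminin polymer and a network of collagen IV are joined by nidogens and the proteoglycan perlecan, while agrin ties laminin to dystroglycan at the cell surface. In the brain they surround blood vessels and line the outer surface, and fibrillar collagens are scarce in the tissue between. Glioblastoma cells meet this matrix along vessels and also express parts of it themselves.

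Libraries held between 29543157 and 37800648 reads on the strand of the genes. Values are read counts relative to the library size (CPM), scaled by the TMM method, or, where genes are compared with each other, the deposited values for transcripts corrected for length and scaled to the library (TPM). A gene was called changed at an adjusted p under 0.05 in edgeR's quasi-likelihood test over all 14020 tested genes. On the second dimension of a multidimensional scaling plot, Bcat1-KO replicate 1 stood at 0.72 and the 2 remaining knockout libraries at -0.36 and -0.35. Bcat1 itself was lower in the knockout, at 155, 176 and 173 CPM against 214, 223 and 232 CPM (log2 fold change -0.41, SE 0.07, adjusted p = 0.000355), so that its message was still present. These reads cover the whole gene and do not show whether an edited exon is present.

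Of the 76 genes, 52 passed the filter on low counts and 24 did not, 4 of the latter with no count in any library. Among the 52, 12 were higher and 27 lower in Bcat1-KO, where 32.0% of all tested genes were higher and 30.3% lower. The called share of the tested matrix genes was 75%, against 62.3% of all tested genes. Changes of at least 2-fold were called in 10 upward and 22 downward, against 9.76% and 9.43% of all tested genes. Changes of at least 4-fold were called in 9 matrix genes upward and 19 downward, against 4.93% and 3.94% of all tested genes. The median log2 fold change was -0.63 over the 52 genes and 0.01 over all tested genes. The libraries of the groups did not overlap for 42 of the 52, and for 67.7% of all tested genes. For 7 of the 52 (Col4a5, Col6a2, Col6a3, Col19a1, Col22a1, Thbs1 and Loxl2) no library of the lower group reached the filter's cutoff of 0.289 CPM. For Col9a1 and Col4a4 not every library of the lower group reached it. Because these genes passed the filter through the group in which they were high, the counts are a description. Without Bcat1-KO replicate 1 the counts were 13 higher and 28 lower.

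**Figure D1:**
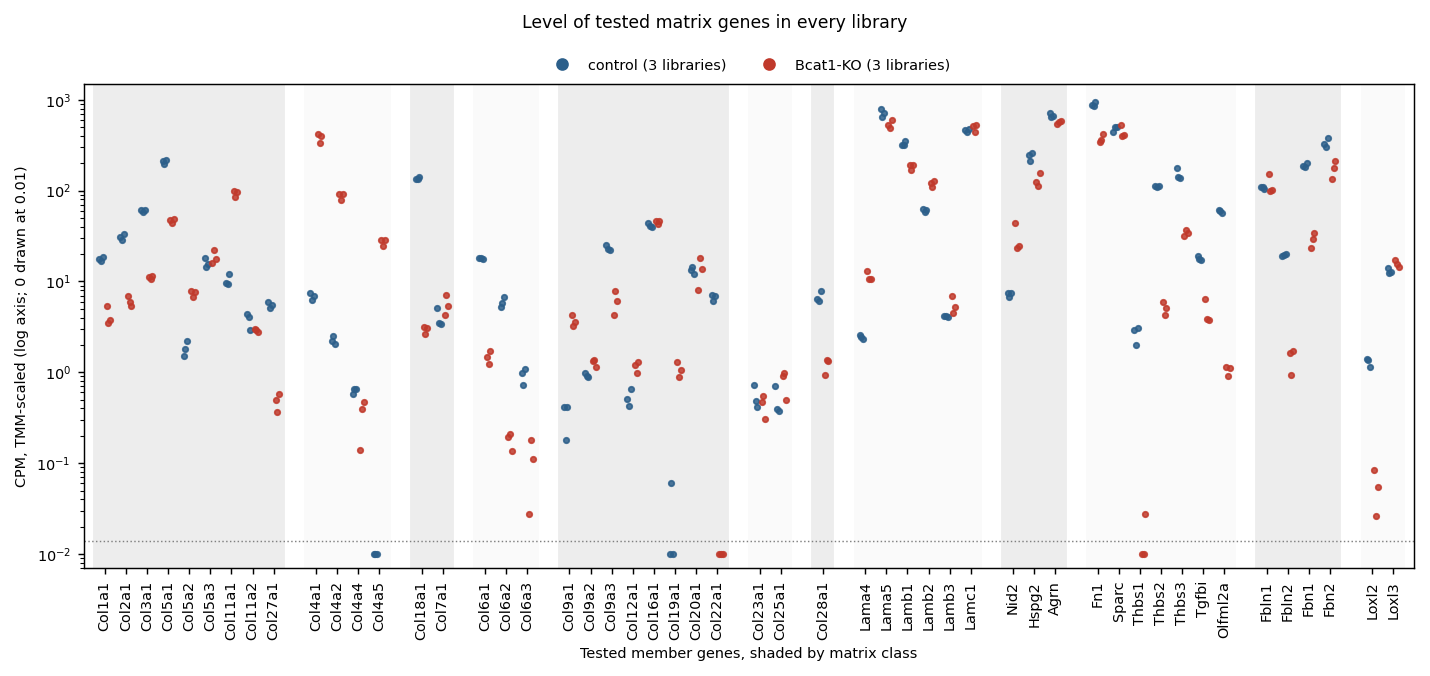
CPM (log axis, a count of 0 drawn at 0.01) of 51 of the 52 tested matrix genes in each of the 3 control and 3 Bcat1-KO libraries, shaded by matrix class. The knockout points of Col4a1 lie between 335 and 423 CPM and the control points between 6.21 and 7.47 CPM, whereas for Col18a1 the order is inverted.

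Collagen IV, the network-forming collagen of basement membranes, was the class with the largest rise in summed level. Its summed TPM was 240.3, 201 and 235 in the knockout libraries and 4.443, 4.003 and 4.141 in the control libraries. Col4a1 and Col4a2, whose products assemble into the most widespread collagen IV trimer, both rose. Col4a1 was read at 423, 335 and 398 CPM in the knockout and at 7.47, 6.21 and 6.85 CPM in the control (log2 fold change 5.81, SE 0.12, adjusted p = 7.03e-12). Col4a2 was read at 92.8, 79.5 and 91.3 CPM against 2.23, 2.501 and 2.07 CPM (log2 fold change 5.27, SE 0.11, adjusted p = 7.03e-12). Every knockout library lay far above every control library for both chains, and the 3 libraries of a group lay close together.

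Col4a5, a chain of the alternative trimers of kidney and smooth muscle basement membranes, was counted only in the knockout libraries. They held 28.5, 24.7 and 28.6 CPM, or 3017 counts in all, against 0 in the control. Taking 3 counts over the control libraries as the detection floor, Col4a5 was at least 851-fold higher. Col4a5 passed the filter through the knockout alone, so this bound is a description. Of the partners of Col4a5 in those trimers, Col4a6 had no count in any library. Col4a3 had 2 counts over the knockout and 10 over the control group. Col4a4 was read at 0.139, 0.39 and 0.468 CPM in the knockout against 0.572, 0.663 and 0.654 CPM (log2 fold change -0.91, SE 0.37, adjusted p = 0.0512). Not every knockout library of Col4a4 reached the filter's cutoff, so the gene passed through the control. The larger share of the reads over Col4a4 lay on the opposite strand (54.9% in the knockout and 56.3% in the control). Its call depends on the processing: it passed as lower with RLE scaling, upper-quartile scaling, no filter, limma-voom, unstranded counts or without Bcat1-KO replicate 3 (adjusted p from 0.00421 to 0.0491).

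The collagen IV genes lie head to head in pairs, which is why the sequences around their starts are shown here. Col4a1 (chromosome 8 from 11198423 to 11312826, minus strand) and Col4a2 (11312805 to 11449287, plus strand) have annotated starts 21 bases apart in mm10, so that a single window of 300 bases holds both. Col4a6 (chromosome X from 141165403 to 141474076, minus strand) and Col4a5 (141475385 to 141689234, plus strand) are separated by 1309 bases in the deposited tables. The windows are from RefSeq (GRCm38.p6), from 250 bases before to 50 bases after the start, read 5′ to 3′ on the strand of the named gene. Capitals mark each GC box (GGGCGG) and CCAAT box (CCAAT) found on either strand.
Col4a2 (chr8:11312555-11312854, plus strand): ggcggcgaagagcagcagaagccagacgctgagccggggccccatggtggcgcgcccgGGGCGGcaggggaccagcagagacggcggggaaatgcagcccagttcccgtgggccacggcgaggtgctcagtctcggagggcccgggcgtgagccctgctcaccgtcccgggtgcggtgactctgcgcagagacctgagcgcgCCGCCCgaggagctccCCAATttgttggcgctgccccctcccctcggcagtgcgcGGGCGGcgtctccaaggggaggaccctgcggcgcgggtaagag
Col4a5 (chrX:141475169-141475468, plus strand): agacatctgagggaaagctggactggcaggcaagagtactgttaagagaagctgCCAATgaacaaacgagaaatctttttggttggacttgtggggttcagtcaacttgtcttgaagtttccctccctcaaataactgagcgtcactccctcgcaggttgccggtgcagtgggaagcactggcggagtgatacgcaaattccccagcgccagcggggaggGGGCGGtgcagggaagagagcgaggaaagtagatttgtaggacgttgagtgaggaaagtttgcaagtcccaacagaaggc
Col4a6 (chrX:141474027-141474326, minus strand): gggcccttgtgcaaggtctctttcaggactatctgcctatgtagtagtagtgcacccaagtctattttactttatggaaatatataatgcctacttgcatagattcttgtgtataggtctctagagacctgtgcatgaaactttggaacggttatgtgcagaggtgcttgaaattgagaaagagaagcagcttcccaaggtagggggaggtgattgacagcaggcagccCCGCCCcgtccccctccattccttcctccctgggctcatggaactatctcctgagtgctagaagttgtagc
In the Col4a2 window its own start is base 251 and the start of Col4a1, transcribed the other way, is base 272. That window holds 3 GC boxes and 1 CCAAT box, the Col4a5 window 1 of each, and the Col4a6 window 1 GC box and no CCAAT box. Over all 32851 RefSeq windows of this length, 35.7% hold a GC box and 37.4% a CCAAT box. Neither TATAAA (13.6% of all windows) nor TGANTCA, the AP-1 site (7.8%), was found in these 3 windows on either strand. Windows were found for 53 of the 76 genes. The G and C content was 73.7% in the Col4a2 window, 52.7% in that of Col4a5 and 48.3% in that of Col4a6. These matches describe letters in a window and show no binding.

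The other collagens of the basement membrane zone did not follow collagen IV. Col18a1, a proteoglycan collagen whose C-terminal fragment is endostatin, fell from 133, 135 and 142 CPM in the control to 3.16, 2.63 and 3.08 CPM in the knockout (log2 fold change -5.53, SE 0.09, adjusted p = 3.41e-12). The groups were far apart, with all knockout libraries below all control libraries. Of the few reads left over Col18a1 in the knockout, 33.3% lay on the opposite strand, against 1.85% in the control. Col15a1, its closest relative, had 1 count in each group. Col7a1, the anchoring fibril collagen, was read at 4.24, 7.17 and 5.42 CPM against 5.12, 3.53 and 3.37 CPM, with overlapping groups and no call (log2 fold change 0.49, SE 0.21, adjusted p = 0.0669). It passed as higher when Bcat1-KO replicate 1, control replicate 1 or the filter on low counts was left out, with adjusted p values of 0.00804, 0.0301 and 0.00699.

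**Figure D2:**
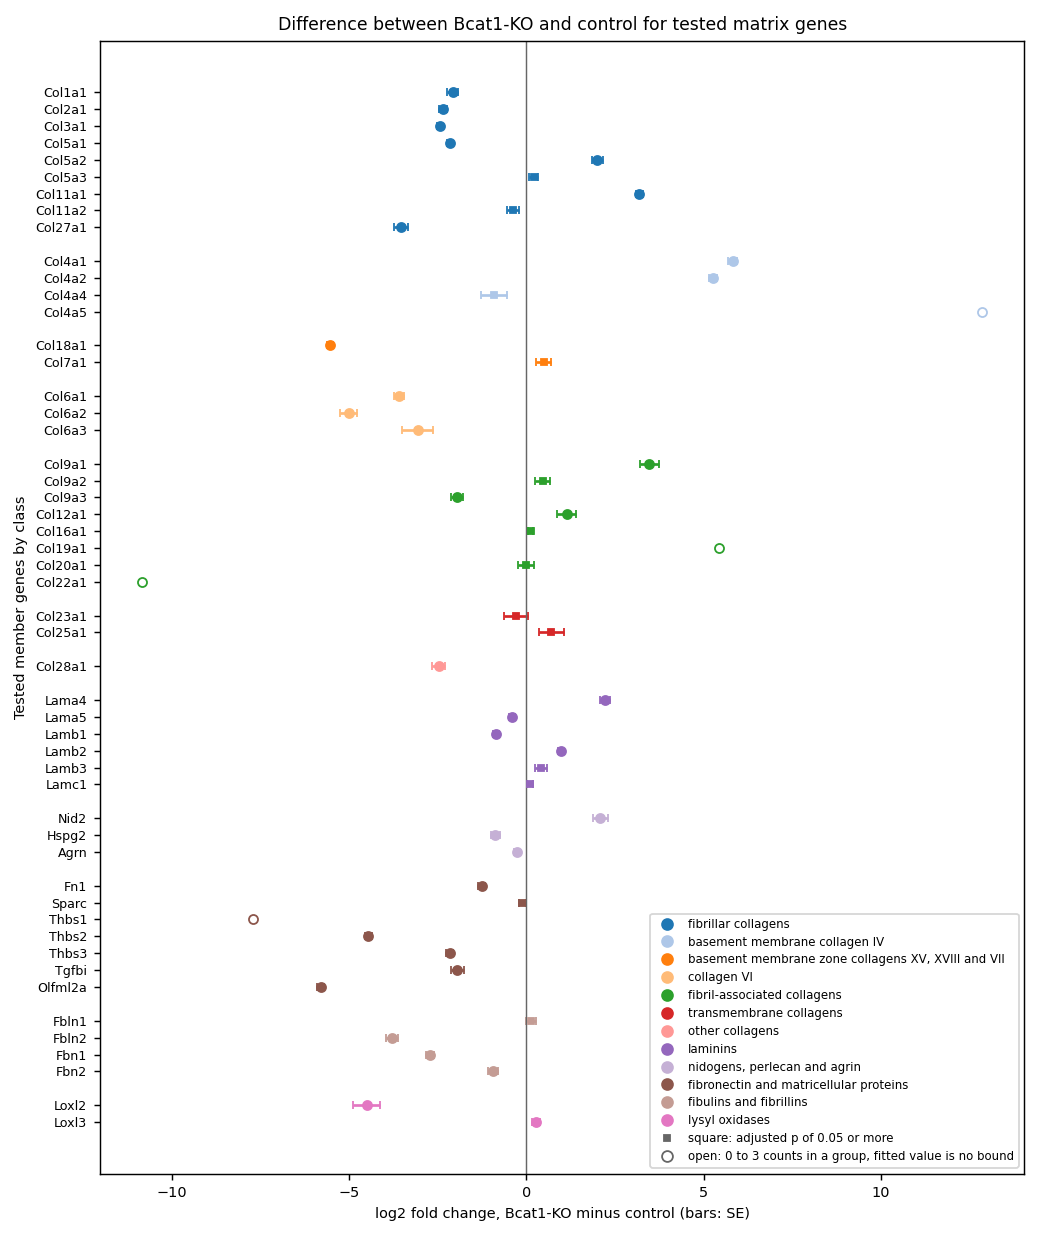
Log2 fold change (Bcat1-KO minus control, bars show the SE) of 51 of the 52 tested matrix genes by class. Circles passed the test, squares did not, and open circles mark Col4a5, Col19a1, Col22a1 and Thbs1, which had 0 to 3 counts in a group. The 3 tested collagen VI genes lie on the lower side, of which Col6a2 and Col6a3 passed the filter through the control alone. The fibrillar collagens and the laminins hold genes on both sides.

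Laminins form the polymer on which basement membranes are built, each molecule being a trimer of an alpha, a beta and a gamma chain. Their summed TPM was nearly level, at 481, 443 and 519 in the knockout libraries against 535, 477 and 527, but the chains moved in different directions. Lama5, the most abundant alpha chain here, was modestly lower, at 531, 494 and 595 CPM against 788, 642 and 708 CPM (log2 fold change -0.40, SE 0.09, adjusted p = 0.00314). That difference did not pass a test against a 1.5-fold threshold. Lama4, the alpha chain of vessel and mesenchymal laminins, rose from 2.54, 2.47 and 2.34 to 13.02, 10.7 and 10.8 CPM (log2 fold change 2.23, SE 0.14, adjusted p = 5.99e-08). Despite this rise Lama5 remained the more abundant message, with a TPM ratio of Lama5 to Lama4 of 50.3 ± 7.82 in the knockout and 308 ± 28.4 in the control (SD, n = 3 each).

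The beta chains moved in opposite directions. Lamb1 fell from 316, 319 and 352 to 190.2, 167 and 190.4 CPM (log2 fold change -0.85, SE 0.08, adjusted p = 1.82e-06). Lamb2, its paralogue in mature vessel and neuromuscular basement membranes, rose from 63.1, 58.8 and 60.9 to 122, 109 and 127 CPM (log2 fold change 0.97, SE 0.07, adjusted p = 2.93e-07). Per length, Lamb1 exceeded Lamb2 in every control library, with TPM ratios of 3.07, 3.33 and 3.55. It fell just short of Lamb2 in every knockout library, with ratios of 0.956, 0.938 and 0.919. That shortfall is small and rests on the gene lengths used, 9917 bases for Lamb1 and 6082 for Lamb2. In CPM Lamb1 stayed above Lamb2 in every library, so an exchange of order is not shown. The ratios of the groups did not overlap, though with 3 libraries against 3 an exact permutation test cannot go below p = 0.1. Lamc1, the common gamma chain, was read at 512, 445 and 522 CPM against 461, 441 and 478 CPM, and its difference was within the spread of the libraries (log2 fold change 0.10, SE 0.08, adjusted p = 0.29). With Lamb1 lower, the TPM ratio of Lamc1 to Lamb1 was 3.24 ± 0.0451 in the knockout and 1.68 ± 0.0649 in the control (SD, n = 3 each).

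Lamb3, a beta chain of epithelial laminin, was rare, at 6.90, 4.47 and 5.17 CPM in the knockout against 4.17, 4.22 and 4.06 CPM, and was not called (log2 fold change 0.41, SE 0.17, adjusted p = 0.0531). Every knockout library lay above every control library, by a small margin. It passed as higher without Bcat1-KO replicate 2 (adjusted p = 0.0185), without the filter, with limma-trend on TPM or with unstranded counts. Lama1, Lama2, Lama3 and Lamc3 did not pass the filter, with means of at most 0.172 CPM.

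Among the proteins that join the networks, nidogens bind laminin to collagen IV. Nid2 was read at 44.2, 23.2 and 24.4 CPM in the knockout and at 7.41, 6.78 and 7.40 CPM in the control (log2 fold change 2.09, SE 0.22, adjusted p = 6.48e-06). Its rise was carried by all 3 knockout libraries, although replicate 1 was highest, and leaving out a library gave log2 fold changes from 1.71 to 2.25. Nid1 was rare, with 39 counts over the knockout group and 4 over the control group, and did not pass the filter. Hspg2, which encodes perlecan, fell from 247, 214 and 259 to 126, 111 and 157 CPM (log2 fold change -0.87, SE 0.12, adjusted p = 4.54e-05). Agrn was lower by a small margin, at 537, 567 and 580 CPM (579.6 for replicate 3) against 713, 652 and 671 CPM (log2 fold change -0.27, SE 0.07, adjusted p = 0.00582), and did not pass the test against a 1.5-fold threshold.

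**Figure D3:**
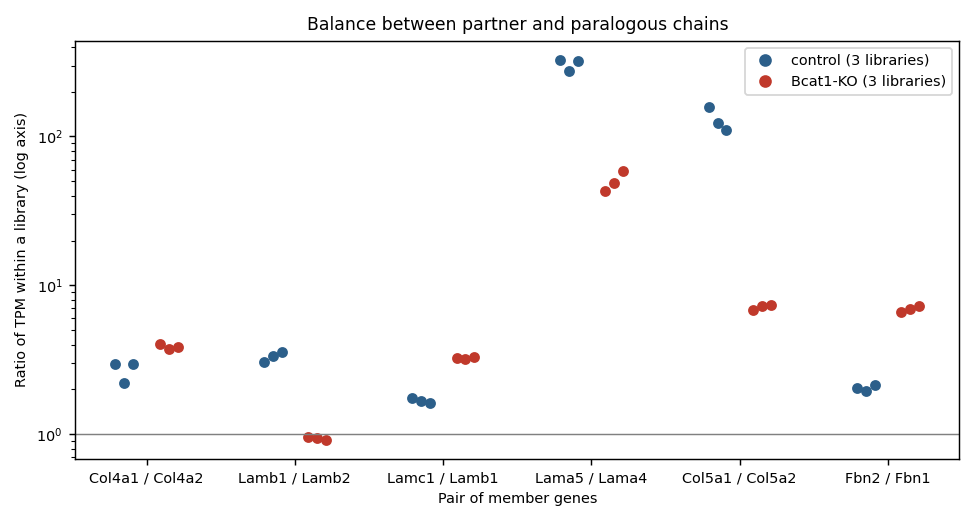
Ratio of TPM between partner or paralogous genes within each library (log axis, 3 control and 3 Bcat1-KO libraries). The ratio of Lamb1 to Lamb2 lies between 3.07 and 3.55 in the control and between 0.919 and 0.956 in the knockout. That of Col5a1 to Col5a2 lies between 111 and 157 in the control and between 6.82 and 7.33 in the knockout.

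Fibrillar collagens, which build the banded fibres of connective tissue, were lower for 5 and higher for 2 of 9 tested genes, against 30.3% and 32.0% of all tested genes. Col5a1, the most abundant of them in the control, fell from 212, 198 and 217 to 47.3, 43.7 and 49.3 CPM (log2 fold change -2.16, SE 0.07, adjusted p = 2.52e-10). Col3a1 went from 61.4, 58.3 and 61.6 to 11.3, 10.7 and 11.5 CPM, and Col2a1, the cartilage collagen, from 30.5, 28.4 and 33.7 to 6.95, 5.87 and 5.39 CPM. In each of these the knockout libraries were below all control libraries by several fold, with log2 fold changes of -2.44 (SE 0.07, adjusted p = 1.05e-10) for Col3a1 and -2.35 (SE 0.11, adjusted p = 6.97e-09) for Col2a1. Col1a1 fell from 17.6, 17.0 and 18.6 to 5.32, 3.51 and 3.80 CPM (log2 fold change -2.08, SE 0.15, adjusted p = 2.02e-07). Col1a2, which encodes the other chain of type I collagen, was nearly absent in both groups, with 8 counts over the knockout and 5 over the control. Col27a1 fell from a mean of 5.55 ± 0.413 to 0.48 ± 0.108 CPM (SD, n = 3 each; log2 fold change -3.53, SE 0.20, adjusted p = 3.07e-08).

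Col11a1 and Col5a2 rose within the same class. Col11a1, which encodes a chain that regulates the width of fibrils, went from 9.57, 9.37 and 11.9 to 100.2, 84.3 and 96.0 CPM (log2 fold change 3.19, SE 0.11, adjusted p = 2.4e-10). Col5a2 went from 1.53, 1.81 and 2.20 to 7.84, 6.78 and 7.59 CPM (log2 fold change 2.01, SE 0.16, adjusted p = 6.58e-07), opposite to its partner chain Col5a1. The TPM ratio of Col5a1 to Col5a2 was 131 ± 23.4 in the control and 7.15 ± 0.283 in the knockout (SD, n = 3 each). Col5a3 (log2 fold change 0.20, adjusted p = 0.197) and Col11a2 (log2 fold change -0.38, adjusted p = 0.0735) were not called. Col5a3 passed as higher without Bcat1-KO replicate 1 (adjusted p = 0.0409) and Col11a2 as lower without control replicate 3 (adjusted p = 0.0229). Markers of fibroblasts and mural cells were read as well. Of 10 such genes 5 were tested, 3 were lower (Pdgfrb, Acta2 and Myh11) and 1 higher (Des), against 30.3% and 32.0% of all tested genes, and their summed level was 30.3 to 33.5 CPM in the control and 22.4 to 25.5 CPM in the knockout. No knockout library of Acta2 reached the filter's cutoff, and not every knockout library of Pdgfrb and Myh11 or control library of Des did. Each of these genes was thus kept by the filter through its higher group, and the marker calls are a description. Dcn and Lum, which fibroblasts express strongly, stayed at means of at most 0.405 CPM in both groups, and Rgs5 and Kcnj8 were at or near 0. Dcn, which did not pass the filter, had 45 counts over the knockout group and 7 over the control group. The part of these markers in the collagen values was not tested. In bulk RNA, fewer cells of a type and less RNA per cell cannot be told apart.

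**Figure D4:**
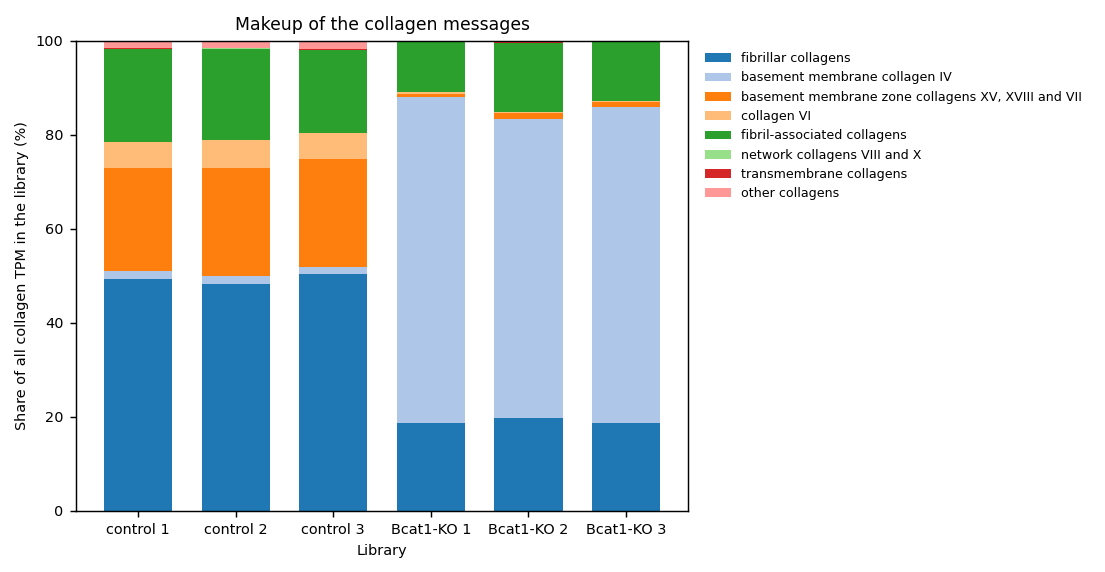
Share of the summed collagen TPM (%) that each collagen class takes in every library. Collagen IV takes between 1.47% and 1.58% in the control libraries and between 63.6% and 69.3% in the knockout libraries.

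The makeup of the collagen messages as a whole differed between the groups. Fibrillar collagens took 49.3% ± 0.983 of the collagen TPM in the control and 19.1% ± 0.635 in the knockout (SD, n = 3 each). The class of collagens XV, XVIII and VII took 22.7% ± 0.669 and 0.945% ± 0.169. Collagen IV took 1.53% ± 0.0539 in the control and 66.7% ± 2.87 in the knockout. The shares of a library add to 100%, so a rise of collagen IV lowers the others by construction, and levels are given as well. The summed TPM of fibrillar collagens was 139, 127 and 141 in the control and 64.8, 62.6 and 65.4 in the knockout.

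Collagen VI, the beaded filament collagen that lies beside basement membranes, was low in the knockout. Of its 3 tested chains only Col6a1 passed the filter on low counts in both groups; Col6a2 and Col6a3 passed through the control alone, so their values are a description. Col6a1 fell from 18.2, 17.9 and 17.6 to 1.47, 1.22 and 1.73 CPM (log2 fold change -3.60, SE 0.14, adjusted p = 9.01e-10). Col6a2 was read at 5.28, 5.75 and 6.75 CPM in the control libraries against 0.194, 0.208 and 0.138 CPM. Col6a3 had a mean of 0.937 ± 0.194 CPM in the control against 0.107 ± 0.0772 CPM (SD, n = 3 each). Its fitted log2 fold change was -3.07, or -3.69 without Bcat1-KO replicate 2. Col6a4, Col6a5 and Col6a6 had at most 14 counts each over the 6 libraries.

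Fibril-associated collagens, which sit on the surface of larger fibrils, split 3 higher, 2 lower and 3 not called among 8 tested. The called share of 62.5% was close to the 62.3% of all tested genes. Col9a1 was read at 0.413, 0.181 and 0.413 CPM in the control and at 4.29, 3.22 and 3.60 CPM in the knockout, with a fitted log2 fold change of 3.47. Not every control library of Col9a1 reached the filter's cutoff, so it passed through the knockout and these values are a description. Col9a3, a chain of the same collagen IX trimer, fell from 25.5, 22.5 and 22.3 to 4.29, 7.82 and 6.03 CPM (log2 fold change -1.95, SE 0.17, adjusted p = 1.29e-06). The third chain, Col9a2, was near 1 CPM in both groups and was not called (adjusted p = 0.0741), although it passed as higher with limma-trend on TPM (adjusted p = 0.0153). Col22a1, a collagen of tissue junctions, had no count in the knockout and 7.03, 6.03 and 6.99 CPM in the control, and by the same floor of 3 counts, here over the knockout libraries, it was at least 247-fold lower. Col19a1 had 120 counts over the knockout and 2 over the control group. The ratio was 50.7 with an exact 95% interval of 13.7 to 423, which covers counting error only. Col22a1 passed the filter through the control alone and Col19a1 through the knockout alone, so their values are a description. Col12a1 was higher at low levels (1.16 ± 0.156 against 0.528 ± 0.117 CPM, SD, n = 3 each, adjusted p = 0.0025). Col16a1 was read at 46.1, 42.8 and 46.8 CPM against 43.8, 41.2 and 39.6 CPM and was not called (log2 fold change 0.12, SE 0.07, adjusted p = 0.15). Col20a1 varied more among the knockout libraries (8.09, 18.01 and 13.8 CPM) than between groups and was not called (adjusted p = 0.995).

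Outside these classes Col28a1, a collagen found around glia of peripheral nerves, fell from 6.46, 6.03 and 7.78 to 0.942, 1.35 and 1.35 CPM (log2 fold change -2.47, SE 0.19, adjusted p = 3.4e-07). Of the transmembrane collagens, Col23a1 and Col25a1 stayed below 1 CPM in every library and were not called, although Col25a1 passed as higher without Bcat1-KO replicate 3 (adjusted p = 0.0336). Col13a1, Col17a1, Col8a1, Col8a2, Col10a1, Col14a1, Col24a1 and Col26a1 did not pass the filter, with means of at most 0.155 CPM.

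Fibronectin and the matricellular proteins, which bind matrix and cell receptors, were lower for 6 and higher for 0 of 7 tested genes, where 30.3% of all tested genes were lower. Fn1 fell from 873, 858 and 958 to 341, 357 and 424 CPM (log2 fold change -1.26, SE 0.09, adjusted p = 2.82e-07). It was the second most abundant of the 76 genes per length in the control, at 242 ± 15.5 TPM, and the sixth in the knockout, at 105 ± 13.4 TPM. Sparc, a collagen-binding glycoprotein, was the most abundant in both groups, at 402 ± 27.9 and 385 ± 50.5 TPM (SD, n = 3 each). It was read at 523, 404 and 410.3 CPM against 441, 500.3 and 506 CPM and was not called (log2 fold change -0.11, SE 0.10, adjusted p = 0.352). Without Bcat1-KO replicate 1 it passed as lower, with a log2 fold change of -0.26 (adjusted p = 0.00424).

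Thrombospondins, which are secreted and bind matrix and cell-surface receptors, were all lower where tested. Thbs2 fell from 112, 109 and 114 to 6.01, 4.26 and 5.06 CPM (log2 fold change -4.45, SE 0.11, adjusted p = 1.65e-11). Thbs3 went from 179, 143 and 139 to 31.6, 36.9 and 34.2 CPM (log2 fold change -2.16, SE 0.10, adjusted p = 4.94e-09). Thbs1 had 1 count over the knockout and 248 over the control group, a ratio of 294 with an exact 95% interval of 52.2 to 11643 for counting error only. It passed the filter on low counts through the control alone. Its control level of 2.67 ± 0.573 CPM was itself low, and Thbs4 was near 0 in both groups. Olfml2a, a secreted olfactomedin-domain protein, fell from 60.8, 59.9 and 56.4 to 1.14, 0.91 and 1.13 CPM, the steepest log2 fold change among the 27 lower genes other than Col22a1 and Thbs1 (-5.80, SE 0.11, adjusted p = 5.49e-12). Tgfbi, an integrin-binding protein induced by TGF-beta, fell from 19.0, 17.6 and 17.4 to 6.37, 3.87 and 3.80 CPM (log2 fold change -1.94, SE 0.17, adjusted p = 1.58e-06). Postn had 29 counts over the knockout group and none in the control and did not pass the filter.

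Fibrillins form the microfibrils of elastic tissue and fibulins bind to them. Fbn1 fell from 185, 179.9 and 203 to 23.3, 29.2 and 34.3 CPM (log2 fold change -2.71, SE 0.12, adjusted p = 2.65e-09) and Fbn2 from 325, 304 and 376 to 133, 176 and 213 CPM (log2 fold change -0.94, SE 0.14, adjusted p = 0.000123). Both fell, but to different extents, and the TPM ratio of Fbn2 to Fbn1 was 2.04 ± 0.0934 in the control and 6.92 ± 0.307 in the knockout (SD, n = 3 each). Fbln2 fell from 19.1, 19.6 and 19.9 to 1.63, 0.936 and 1.71 CPM (log2 fold change -3.78, SE 0.17, adjusted p = 4.07e-09). Fbln1 was read at 154, 98.8 and 101 CPM against 109, 111 and 103 CPM. Knockout replicate 1 stood above the control libraries and the other knockout libraries below them, and the gene was not called (log2 fold change 0.13, SE 0.14, adjusted p = 0.423).

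Lysyl oxidases cross-link collagens and elastin. Loxl2, which also cross-links collagen IV, was read at 1.40, 1.36 and 1.14 CPM in the control and at 0.0831, 0.026 and 0.055 CPM in the knockout. It passed the filter on low counts through the control alone, and these values are a description. Loxl3 was slightly higher, at 17.1, 15.5 and 14.6 CPM against 13.9, 12.4 and 12.7 CPM (log2 fold change 0.27, SE 0.10, adjusted p = 0.0321). That call was lost without Bcat1-KO replicate 1, Bcat1-KO replicate 2, control replicate 2 or control replicate 3 (adjusted p from 0.0686 to 0.139), and over this gene 58.9% of the knockout reads and 56.2% of the control reads lay on the opposite strand. Lox had no count in any library and Loxl1 had 6 and 7 counts over the groups.

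**Figure D5:**
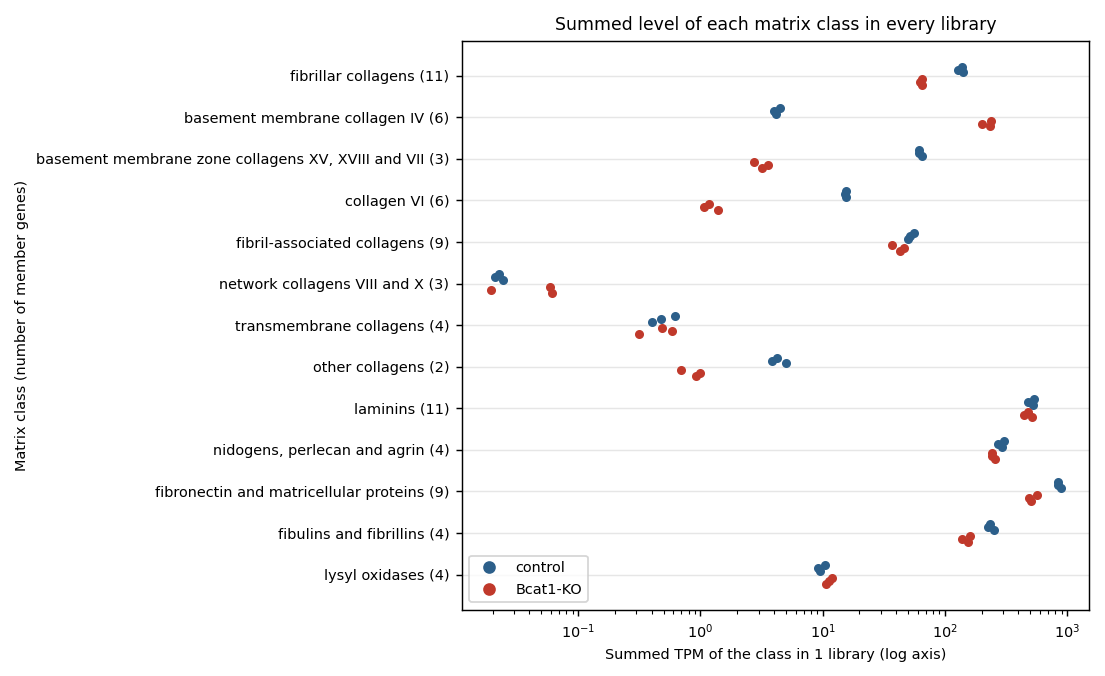
Summed TPM of each matrix class (log axis) in the 3 control and 3 Bcat1-KO libraries, with the number of genes of the class in brackets. Collagen IV moves from 4.003 to 4.443 TPM in the control to 201 to 240.3 TPM in the knockout, whereas the laminins lie between 443 and 535 TPM in all 6 libraries.

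Per length, the order of the messages changed at the level of single genes more than in sum. The summed TPM of all 76 genes was 2184 ± 81.0 in the control and 1752 ± 94.96 in the knockout (SD, n = 3 each). In the control the order ran Sparc, Fn1, Agrn, Lama5, Lamc1 and Lamb1, with Fn1 and Agrn at 242 ± 15.5 and 231 ± 12.4 TPM and their libraries overlapping. In the knockout it ran Sparc, Agrn, Lamc1, Col4a1, Lama5 and Fn1, and Agrn (198 ± 11.01 TPM) and Lamc1 (195 ± 15.1 TPM) did not differ beyond their spread. Col4a1 stood at place 30 in the control (2.90 ± 0.292 TPM) and at place 4 in the knockout (169 ± 17.4 TPM). The knockout libraries of Col4a1 overlapped those of Lamc1 and of Lama5, so the order among these genes is not resolved. Col18a1 went from place 11 (61.3 ± 2.21 TPM) to place 35 (1.38 ± 0.118 TPM). The TPM ratio of Col4a1 to Col4a2 was 4.04, 3.74 and 3.86 in the knockout against 2.98, 2.20 and 2.94, with no overlap between the groups.

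Several of these genes are neighbours, with 13 pairs of adjacent members less than 1 Mb apart, and in 9 pairs both genes were tested. Both genes were higher in 2 pairs, both lower in 3 and they went in opposite directions in 1. These counts are a description beside 12 higher and 27 lower of the 52 tested matrix genes. No share of such pairs over all genes was worked out, and Col6a1 belongs to more than 1 of the lower pairs. Besides Col4a1 and Col4a2, the higher pair was Col9a1 and Col19a1 on chromosome 1, with 9.2 kb between their ends. The opposite pair was Col3a1 and Col5a2, also on chromosome 1, where 24.6 kb separate a gene that fell (log2 fold change -2.44) from a gene that rose (2.01). On chromosome 10, Col6a2 (76595762 to 76623630), Col6a1 (76708792 to 76726168) and Col18a1 (77052178 to 77166548) all lie on the minus strand and all fell. Between Col6a1 and Col18a1 the only other tested gene was Pcbp3, an RNA-binding protein gene, with a log2 fold change of -0.06 and no call. Lama5 and Col9a3 on chromosome 2, both lower, have 371.9 kb between their ends, with 1 of 5 tested genes between them called, as higher.

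Genes that act on this matrix were followed in 5 lists outside the 76. Some of them, among those named Itga3, Frem1, Frem2, Mmp14 and Adamts5, did not reach the filter's cutoff in every library of their lower group. They passed through the group in which they were high, so the counts per list are a description. Of 21 tested enzymes and chaperones of collagen modification, folding and processing, 15 were lower and 5 higher, against 30.3% and 32.0% of all tested genes, with a median log2 fold change of -0.41. Fkbp10, a collagen chaperone of the endoplasmic reticulum, fell from 112 ± 3.20 to 5.42 ± 0.221 CPM. P4ha2, a collagen prolyl 4-hydroxylase, fell from 23.6 ± 0.297 to 6.02 ± 1.245 CPM and Adamts14, a procollagen N-propeptidase, from 44.8 ± 2.67 to 19.5 ± 0.65 CPM. P3h2, a prolyl 3-hydroxylase that acts on collagen IV, rose from 3.90 ± 0.587 to 16.1 ± 1.76 CPM. Among the 21 tested receptors of collagens, laminins and other matrix proteins, 8 were higher and 8 lower, beside the same 32.0% and 30.3% (median log2 fold change -0.21). The laminin-binding integrin gene Itga3 fell from 5.11 ± 0.172 to 0.305 ± 0.0849 CPM, the syndecan gene Sdc4 from 137 ± 7.15 to 12.9 ± 0.897 CPM and Itgb5 from 71.0 ± 3.05 to 27.5 ± 1.62 CPM, while Itgb8 rose from 13.1 ± 0.467 to 41.7 ± 5.93 CPM.

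Other basement membrane and microfibril genes were higher for 8 and lower for 9 of 18 tested, against 32.0% and 30.3% of all tested genes. The 4 with the largest changes all rose. Frem2 and Frem1, proteins of the sheet beneath epithelia, went from 0.634 ± 0.348 to 26.2 ± 1.43 CPM and from 0.152 ± 0.0887 to 2.38 ± 0.382 CPM. Npnt (nephronectin, an integrin ligand of basement membranes) rose from 7.20 ± 0.956 to 57.7 ± 7.45 CPM and Smoc1 from 10.7 ± 0.484 to 71.6 ± 7.60 CPM. Matrix proteases and inhibitors were higher for 8 and lower for 9 of 20 tested, beside the same 32.0% and 30.3%. The gelatinase gene Mmp2, whose product cleaves collagen IV, fell from 138 ± 1.67 to 0.958 ± 0.113 CPM, whereas Mmp14 rose from 0.198 ± 0.147 to 27.2 ± 1.76 CPM, Adamts5 from 0.0639 ± 0.0548 to 6.73 ± 0.658 CPM and the inhibitor gene Timp4 from 4.24 ± 0.345 to 154 ± 6.72 CPM. Without control replicate 1, which holds 4 of the 6 control counts of Adamts5, its log2 fold change was 7.55 in place of 6.64. Of the brain matrix proteoglycans and tenascins, 6 of 11 tested were higher and 4 lower, beside 32.0% and 30.3% of all tested genes. Their summed TPM was 883 ± 39.2 in the control and 939 ± 138 in the knockout. Tnc and Vcan, the genes of this list with the highest CPM in the control, fell from 825 ± 71.5 to 432 ± 180 CPM and from 782 ± 75.8 to 395 ± 64.2 CPM. Ncan rose from 66.0 ± 3.92 to 331 ± 43.8 CPM and Cspg5 from 3.35 ± 0.439 to 49.8 ± 3.24 CPM, and the membrane proteoglycan genes Ptprz1 (from 35.2 ± 2.58 to 364 ± 72.8 CPM) and Cspg4 (from 9.63 ± 0.68 to 55.6 ± 9.85 CPM) rose as well (mean ± SD, n = 3 each).

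Collagen IV is also a product of vessel cells, so markers of endothelium were read in the same libraries. Of 8 endothelial genes 3 were tested, 0 were higher and 1 lower (Tek), against 32.0% and 30.3% of all tested genes. No knockout library of Tek reached the filter's cutoff, so its call is a description. The summed level of the 8 genes was 0.886 to 1.33 CPM in the knockout and 1.20 to 1.40 CPM in the control. Cldn5 had no count in any library, and Cdh5, Kdr, Flt1 and Emcn had means of at most 0.0535 CPM. Of 8 genes of microglia and macrophages 1 was tested (Cd68) and not called, and Itgam, C1qa and C1qb had no count in any library. Of 8 genes of neural stem and glioma cells, 6 were higher and 0 lower in the knockout, where 32.0% of all tested genes were higher and 30.3% lower, and their summed level was 1476 to 1542 CPM in the control and 2272 to 2472 CPM in the knockout. The part of this rise in the matrix values was not tested. Sox2, Olig2 and Nes, which mark the labelled cell type, had means of at least 136 CPM in both groups.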

How the data were processed

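Libraries were stranded poly(A) preparations from column-extracted, DNase-treated RNA, per the labels' protocols. The submitters' processing notes name STAR 2.5.3a, featureCounts and the build mm10; the sources used here give no annotation release. The deposited counts are raw reads per gene, without strand and on each strand, per the file headers; 96.4% to 96.5% of stranded reads lay on the reverse strand, and those counts were tested. The deposited TPM values are scaled by the authors to the same total over all genes of every library.

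Genes were filtered with edgeR 4.0.16's expression filter (14020 of 49585 kept), scaled by TMM and compared with edgeR's quasi-likelihood test without covariates, with Benjamini-Hochberg adjustment over all tested genes. A count of 3 corresponds to 0.0794 to 0.102 CPM in 1 library. The standard error is the log2 fold change divided by the root of the F statistic. The test was checked on simulated data. Between replicates chi-square per gene was 4.03 to 33.7, beyond counting noise, and each library was kept as its own sample. Alternatives used limma 3.58.1 and DESeq2 1.42.0, in R 4.3.3 and Python 3.11.15. Matrix genes are named with values if called with at least 5 CPM in the higher group, or at least 1 CPM and a log2 fold change of 2; collagen IV, laminin, nidogen, perlecan and agrin genes are named throughout, except 1 tested gene that is not reported here, and of each list up to 4 genes with the largest change. The genes and lists were chosen with earlier results of these data known.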

Additional observations from a re-analysis of the deposited data

How the results depend on the processing

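Alternatives were RLE and upper-quartile scaling, no filter on low counts, counts without strand, DESeq2, limma-trend on TPM with a pseudocount of 1, limma-voom, a replicate block, a test against a 1.5-fold threshold and leaving out each library. Without the filter 19 matrix genes were higher in place of 12, the additional ones being Postn, Nid1, Lama1, Lama2, Col24a1, Col7a1 and Lamb3. Against a 1.5-fold threshold 3045 genes of the whole table passed in place of 8735, and 3 matrix genes lost their call (Lama5, Agrn and Loxl3). Leaving out each library gave 7734 to 9330 called genes over the whole table, 12 to 15 matrix genes higher and 27 to 28 lower, and 10 to 12 higher and 22 to 25 lower by at least 2-fold. None of the 52 tested matrix genes reversed a called direction under these settings. Replicate numbers are shared by both groups, but same-numbered libraries did not deviate together (correlations of -0.05, -0.07 and 0.16), and not every library correlated best with its own number, so the libraries were taken to share a number only. A replicate block gave 12 higher and 27 lower matrix genes and 8662 called genes in all. Fitted log2 fold changes of genes with few counts in a group depend on single libraries: that of Col19a1 went from 5.44 to 8.22 without control replicate 2, that of Adamts5 from 6.64 to 7.55 without control replicate 1, that of Col6a3 from -3.07 to -3.69 without Bcat1-KO replicate 2 and that of Thbs1 from -7.72 to -9.49 without Bcat1-KO replicate 3. With TMM-scaled reads per kilobase in place of TPM, the log2 ratio of summed levels between the groups moved by less than the library spread of both groups combined (SD of log2 sums) in each of the 13 classes.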
